A study of Penicillium oxalicum with 9 samples.

Results

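RNA-seq of the filamentous fungus *Penicillium oxalicum* was used to compare the deletion mutant Δ*rsrA* with its parental strain Δ*ku70*, with 3 libraries per strain. The genes compared are the 8550 of 9721 listed genes whose mean FPKM (fragments counted per kilobase of transcript and scaled to the library's mapped total) over these 6 libraries was at least 1. Δ*ku70*, called the wild type in the sample labels, lacks *ku70*, a gene of non-homologous end joining, and Δ*rsrA* carries the deletion of *rsrA* (POX01907 in the numbering of the files) on top of it, so both strains lack *ku70*. Libraries of a further mutant made in Δ*ku70*, Δ*rsrB*, again 3, are given side by side and in a direct comparison of both mutants only. For all of them, spores were raised for 4 days at 28 °C according to the labels (the methods of the paper give a longer time), grown with glucose for 24 h, and the mycelia were then held for 24 h in a medium that induces secreted enzymes. The sources disagree on its carbon source, which is raw starch or Avicel (a microcrystalline cellulose) in the labels and corn starch in the paper. They do not say whether the 3 Δ*rsrA* libraries came from separate transformants. The paper calls the libraries biological replicates, and the labels do not say that they were separate cultures, so p-values measure the spread between these libraries.

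RsrA is a transcription factor that acts on the expression of amylase genes in this fungus. Amylases and related hydrolases that attack ungelatinized granules are together called raw starch-degrading enzymes, and filamentous fungi secrete them when starch is the carbon source. Fungal genes that serve a common pathway, such as the synthesis of a secondary metabolite, often lie side by side in the genome and are often expressed together. Identifiers of the form POX followed by 5 digits number the genes of the HP7-1 genome, and they belong to an older numbering than the one used in the paper. Neither the files nor the annotation table used here pairs them with names. The amylase genes and other functional groups were therefore not analysed here, genes are described by their level and by their place in the numbering, and the numbering was not placed on the genome.

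The summed FPKM of a library was 950456 to 1047725 in Δ*ku70* and 998483 to 1058215 in Δ*rsrA*, and relative depth, read from weakly expressed genes, was the same in all 6 libraries. The median FPKM of all listed genes was 21.4 to 22.6 in the Δ*ku70* libraries and 16.4 to 17.2 in the Δ*rsrA* libraries. Genes listed at 0 numbered 315 to 405 and 402 to 478, respectively. Δ*ku70* replicate 1 stood apart from the others of its strain. Pearson's r of log2(FPKM + 1) over all listed genes was 0.915 and 0.906 between it and replicates 2 and 3. Between replicates 2 and 3 of Δ*ku70* and the Δ*rsrA* libraries r was 0.911 to 0.936. Between replicate 1 and the Δ*rsrA* libraries it was 0.851 to 0.857. Replicate 1 was thus about as far from its own strain as replicates 2 and 3 were from Δ*rsrA*, and farther still from Δ*rsrA*. The median standard deviation of a gene on the log2(FPKM + 1) scale was 0.30 in Δ*ku70*, 0.16 in Δ*ku70* without replicate 1, and 0.14 in Δ*rsrA*. Several results are also given without this library.

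The transcript of *rsrA* itself was nearly lost in the mutant. In Δ*ku70* it had 22.9, 17.1 and 16.5 FPKM, in Δ*rsrA* 0.01, 0.01 and 0.04, while the Δ*rsrB* libraries held 19.9 to 24.2. The 3 libraries labelled Δ*rsrA* thus lay far below all others, as their labels say. On the log2(FPKM + 1) scale the difference was -4.27 ± 0.18 (SE, n = 3 per strain, limma, Benjamini-Hochberg adjusted p = 0.000117), a scale that understates the change of a gene near 0. *rsrB* (POX08340, identified from the labels of the Δ*rsrB* strain), which encodes another regulator of the same enzymes, had FPKM values of 30.6, 35.7 and 30.6 in Δ*ku70* and 8.26, 8.01 and 7.28 in Δ*rsrA*. These groups did not overlap, and the log2 fold change was -1.91 (limma, adjusted p = 0.000405), or -1.61 with libraries scaled by the median of ratios.

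The identifier just before *rsrA* rose sharply in Δ*rsrA*. It had 9.42, 4.35 and 5.13 FPKM in Δ*ku70* and 123, 118 and 93.2 in Δ*rsrA*. Each mutant library was thus far above each parental library. The means were 6.30 ± 2.73 and 111.5 ± 15.95 (SD, n = 3), a 17.7-fold difference, and the log2 fold change was 4.00 ± 0.27 (SE, limma, adjusted p = 0.000407), which ranked 32 among all rises. An exact permutation test of this gene alone gave p = 0.1 (two-sided), the smallest value that 20 splits of 6 libraries allow. In Δ*rsrB*, where *rsrA* is intact, the same gene had 9.35, 6.79 and 6.28, within the range of the parental strain. The rise was thus seen in the strain in which the neighbouring gene had been deleted. In that strain the loss of RsrA and the altered DNA at that gene come together, and a part of either in the rise was not tested. The direct difference between Δ*rsrA* and Δ*rsrB* was 3.74 on the log2 scale (limma, adjusted p = 5.33e-06).

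The other identifiers around *rsrA* did not share that rise. The second identifier before *rsrA* had 16.4, 13.5 and 13.7 FPKM in Δ*ku70* and 10.9, 16.1 and 16.5 in Δ*rsrA*, overlapping ranges with a log2 fold change of -0.02 (limma, adjusted p = 0.938). The identifier just after *rsrA* was lower, at 14.9, 18.6 and 25.5 against 11.8, 11.2 and 12.49. It passed the test on the deposited values only narrowly (log2 fold change -0.65, limma, adjusted p = 0.0464) and did not pass after scaling by the median of ratios (-0.35, adjusted p = 0.188). The second identifier after *rsrA* had 3.97, 0.67 and 0.67 FPKM in Δ*ku70* and 0, 0 and 0.66 in Δ*rsrA*. Its mean over the 6 libraries was under 1, so it was not tested.

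**Figure D1:**
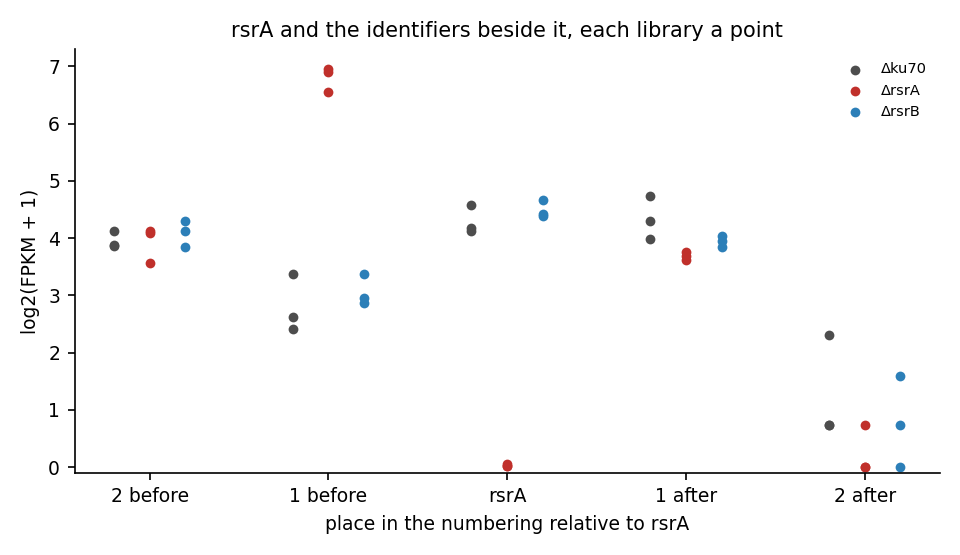
Expression, as log2(FPKM + 1), of rsrA and of the identifiers beside it in the numbering, with each point a library and the 3 strains in separate colours. rsrA is near 0 in the 3 ΔrsrA libraries, the identifier before it lies between 93.2 and 123 FPKM in ΔrsrA and at 9.42 FPKM or below in the other strains, and the identifier after it is lower in ΔrsrA (11.2 to 12.49 FPKM) than in Δku70 (14.9 to 25.5 FPKM).

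Deletion of *rsrA* was accompanied by change over a large part of the expressed genes. Of the 8550 genes, 3310 (38.7%) passed the test (limma, Benjamini-Hochberg adjusted p under 0.05), 833 (9.74%) as raised and 2477 (29.0%) as lowered in Δ*rsrA*. Libraries of both strains did not overlap for 1280 genes that were higher in Δ*rsrA* (15.0%) and for 3551 that were lower (41.5%). FPKM is relative to the library's total, so the values show shares of the transcripts and not amounts of RNA per cell.

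Most changes were moderate in size. The median raised gene had a log2 fold change of 1.03 (quartiles 0.72 and 1.56), and the median lowered gene -0.95 (quartiles -0.70 and -1.38), on the log2(FPKM + 1) scale. At least 2-fold changes were called for 437 raised and 1136 lowered genes, at least 4-fold changes for 131 and 280, and at least 16-fold changes for 31 and 34. On the deposited values, lowered genes thus outnumbered raised genes by less among the 16-fold changes than among all, and with libraries scaled by the median of ratios 39 were raised and 25 lowered by at least 16-fold. Over all 8550 genes the median was -0.29, with the central 80% between -1.31 and 0.74. Of the 5240 genes that were not called, 3221 (61.5%) had a 95% interval of the fold change that lay within 2-fold either way, and for the remainder a 2-fold change was not excluded.

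The balance of direction depended on how libraries were scaled. On the deposited values 74.8% of the called genes were lowered. With libraries scaled by the median of ratios, which shifted the median over all genes from -0.29 to 0.01, it was 46.0%, with 1500 raised and 1276 lowered. Quantile normalization gave 48.0%. Both scalings centre the typical gene near 0 and so bring the numbers of rises and falls closer by construction. Without Δ*ku70* replicate 1 more genes were called on the deposited values, 1121 raised and 3473 lowered, with 75.6% lowered.

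The balance of direction and the median change differed with the expression level of the gene. Among the 376 genes with a mean FPKM of 500 and above, 116 (30.9%) were raised and 45 (11.97%) lowered, and their median log2 fold change was 0.42. Among the 1200 genes between 100 and 500, 222 (18.5%) were raised and 212 (17.7%) lowered, with a median of -0.02. Among the 3408 genes between 20 and 100, 294 (8.63%) were raised and 946 (27.8%) lowered, with a median of -0.25. The 2441 genes between 5 and 20 had 122 (5.00%) raised and 942 (38.6%) lowered, with a median of -0.46. The 1125 genes between 1 and 5 had 79 (7.02%) raised and 332 (29.5%) lowered, with a median of -0.48, where the pseudocount of 1 shrinks the fold change. The most strongly expressed genes thus moved upwards and the weakly expressed ones downwards in the mutant. The class of a gene was set by the mean over both strains.

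**Figure D2:**
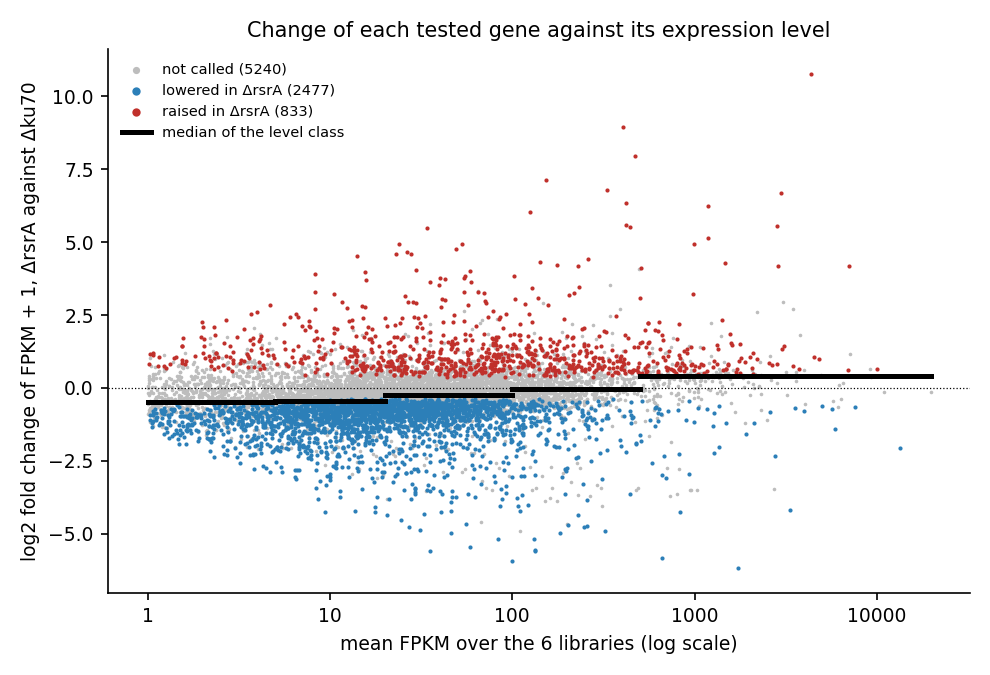
The log2 fold change of FPKM + 1, ΔrsrA against Δku70, of each of the 8550 tested genes against its mean FPKM over the 6 libraries (log scale), with called genes coloured and thick lines at the median of each class of level. The line rises from -0.48 in the class of 1 to 5 FPKM to 0.42 in that of 500 and above, and the highest points are raised genes of 100 FPKM and more.

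The order of the classes was kept when libraries were scaled by the median of ratios. Medians were then -0.25, -0.16, 0.07, 0.30 and 0.74 from the weakest to the strongest class. In the strongest class 52.7% of the genes were raised and 5.59% lowered, and in the class between 5 and 20 FPKM 8.97% were raised and 19.7% lowered. The classes between 20 and 500 FPKM thus changed the sign of their median with the scaling, whereas the strongest and the 2 weakest classes kept it. Without Δ*ku70* replicate 1 the medians were -0.46, -0.44, -0.29, -0.05 and 0.33. Quantile normalization gives every library the same distribution of values and so takes away most differences of this kind by construction. Its medians were -0.01, -0.02, 0.01, 0.03 and 0.18.

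The share of the transcripts taken by each class was compared over libraries. Genes of 500 FPKM and above held 52.1%, 56.6% and 55.4% of the summed FPKM in Δ*ku70*, and 61.4%, 60.2% and 58.9% in Δ*rsrA*. Every Δ*rsrA* library was above every Δ*ku70* library, with means of 54.7% ± 2.31 and 60.2% ± 1.24 (SD, n = 3) and a difference of 5.46 percentage points. Without Δ*ku70* replicate 1, which had the lowest share, the difference was 4.17 points. The genes between 20 and 100 FPKM held 17.0% ± 0.726 in Δ*ku70* and 13.95% ± 0.627 in Δ*rsrA*. Those between 5 and 20 held 3.42% ± 0.380 and 2.35% ± 0.147, and those between 1 and 5 held 0.362% ± 0.0424 and 0.236% ± 0.00490. These 3 classes were lower in every mutant library. Exact permutation tests gave p = 0.1 for each of these 4 differences (two-sided, 0.14 after Benjamini-Hochberg adjustment over 7 measures), the smallest p that 3 against 3 libraries allow, so the design could not reach 0.05. For the class between 100 and 500 FPKM the libraries overlapped (exact permutation p = 0.2).

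Part of the larger share of the strongest class came from 3 genes of the longest raised run, described further on. They held at most 0.00980% of the FPKM in a Δ*ku70* library and 1.70%, 1.58% and 1.64% in Δ*rsrA*, which is 1.63 of the 5.46 percentage points. The other 373 genes of the class held 52.1%, 56.6% and 55.4% in Δ*ku70*, and 59.7%, 58.6% and 57.3% in Δ*rsrA*, and the strains still did not overlap. The 10 highest genes of each library, which need not be the same genes, held 12% ± 1.18 of the FPKM in Δ*ku70* and 10.3% ± 0.422 in Δ*rsrA*, a smaller share in the mutant in all libraries (exact permutation p = 0.1). The 100 highest held 36.4% ± 1.28 and 37.2% ± 0.631, with overlapping libraries (exact permutation p = 0.4). The median gene of the strongest class had 748 to 891 FPKM in the Δ*ku70* libraries and 970 to 1086 in the Δ*rsrA* libraries. The median gene between 5 and 20 FPKM had 12.3 to 13.4 and 8.86 to 9.42. Neither pair of ranges overlapped.

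**Figure D3:**
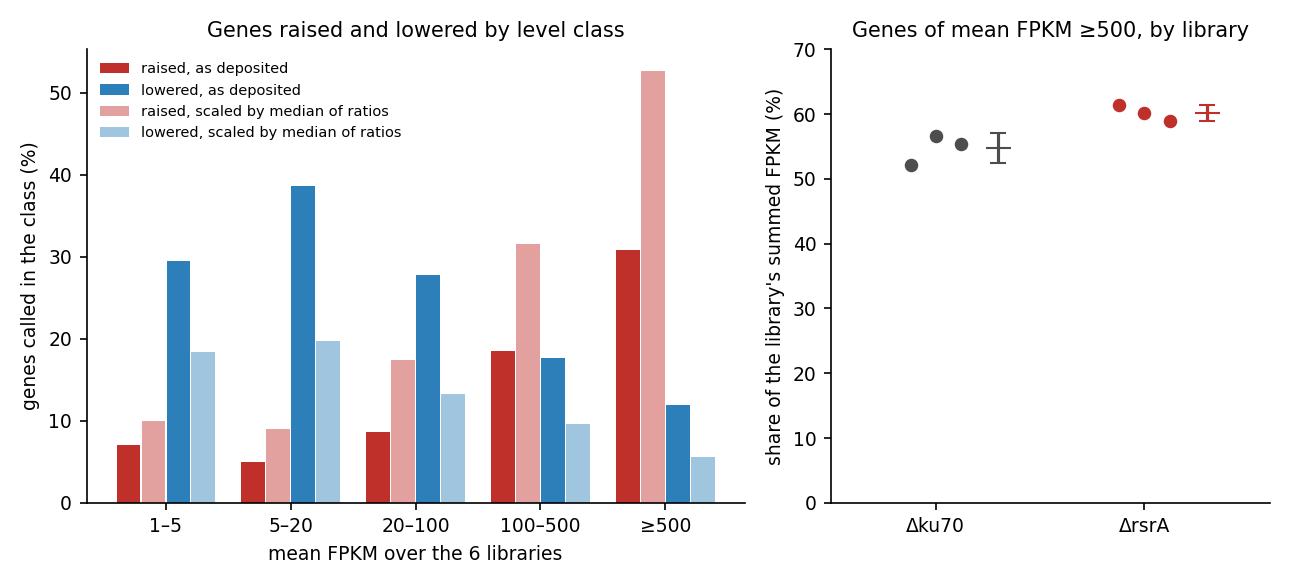
Left, percentage of the genes of each class of mean FPKM that were raised or lowered in ΔrsrA, on the deposited values (full colour) and with libraries scaled by the median of ratios (pale). Right, percentage of each library's summed FPKM held by genes of mean FPKM 500 and above, with each library as a point and the mean ± SD beside it, 54.7% in Δku70 and 60.2% in ΔrsrA. In the strongest class raised genes outnumber lowered ones under both scalings, and in the 2 weakest classes lowered genes outnumber raised ones.

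Changes of the same direction lay together in the numbering of the genes. Among the 7677 pairs of consecutive identifiers that were both tested, a gene next to a raised gene was raised in 23.9% of cases, against 9.74% of all genes, and lowered in 15.99%. A gene next to a lowered gene was lowered in 38.1%, against 29.0% of all genes, and raised in 5.51%. With libraries scaled by the median of ratios these shares were 31.9% raised next to a raised gene (17.5% of all) and 27.1% lowered next to a lowered gene (14.9% of all). Without Δ*ku70* replicate 1 they were 29.5% raised next to a raised gene (13.1% of all) and 49.1% lowered next to a lowered gene (40.6% of all). Genes side by side thus shared a direction more often than genes at large under both scalings and without that library.

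The likeness faded within a few identifiers. Across gene pairs, Pearson's r of the log2 fold changes was 0.36 for identifiers 1 apart, 0.21 for 2 apart, 0.15 for 3 apart, 0.11 for 4 apart, 0.069 for 5 apart and 0.0038 for 20 apart. All pairs come from the same 6 libraries, and genes are no replicates, so r is a description without a p. Without the longest raised run, described further on, r was 0.32 for identifiers 1 apart, and without Δ*ku70* replicate 1 it was 0.33. The mean level itself had r = 0.12 for identifiers 1 apart. Neighbours were thus more alike in their change than in their level.

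**Figure D4:**
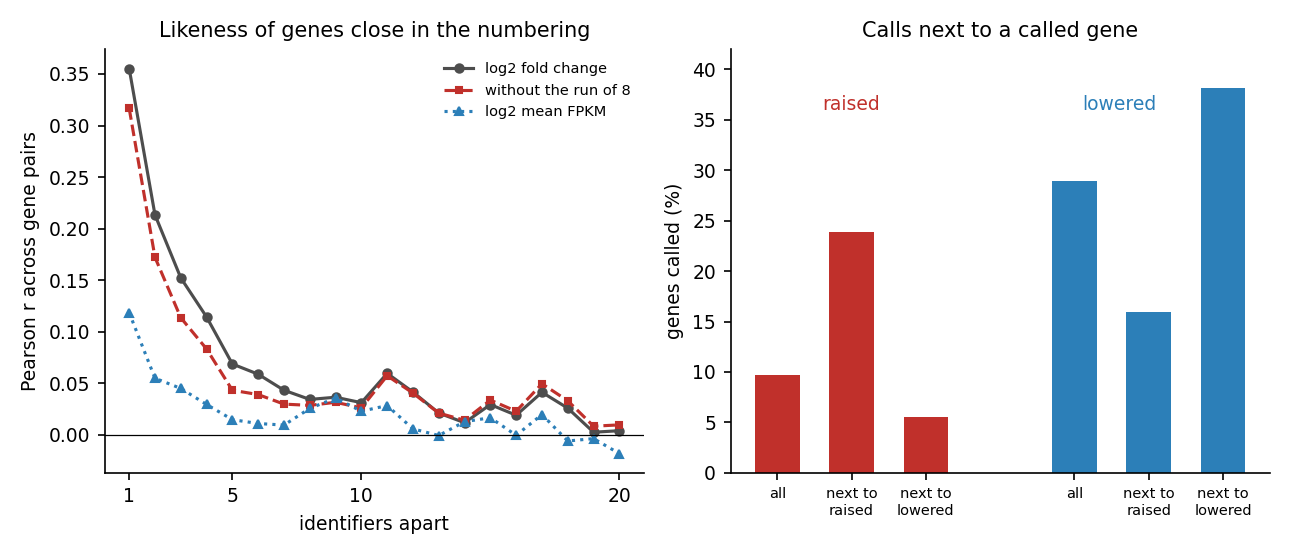
Left, Pearson's r across pairs of tested genes against the number of identifiers between them, for the log2 fold change (with and without the longest raised run) and for the log2 mean FPKM, with r = 0.36, 0.32 and 0.12 at 1 apart. Right, percentage of genes raised (red) and lowered (blue) among all tested genes, among genes next to a raised gene and among genes next to a lowered gene, with 23.9% raised beside a raised gene against 9.74% of all.

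On a larger scale no stretch of the numbering stood for the whole response. In 49 windows of 200 identifiers, each with 139 to 189 tested genes (a last window with 19 tested genes was left out), 2.48% to 16.7% of the genes were raised and 16.9% to 39.4% lowered. The median log2 fold change of a window lay between -0.51 and -0.06, around the -0.29 of all genes. Raised and lowered genes were thus found in each of the 49 windows.

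Runs of 3 or more consecutive identifiers called in the same direction numbered 31 for raised and 171 for lowered genes. They held 108 raised genes, 12.97% of those called, and 651 lowered genes, 26.3% of those called. Runs of 4 or more numbered 8 and 75. A further 103 raised and 354 lowered pairs were found, while 519 raised and 1118 lowered genes stood alone. Lowered genes were more frequent to begin with, and the number of runs that such frequencies alone would give is not given here. The order turned with the scaling, to 97 raised and 52 lowered runs when libraries were scaled by the median of ratios. Without Δ*ku70* replicate 1 there were 57 raised and 362 lowered runs.

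The longest raised run on the deposited values held the largest rises. It consisted of the 8 consecutive identifiers from POX08686 to POX08693, and the log2 fold changes of its members, 6.26 to 10.77, were the 8 largest rises of all genes tested. The next largest rise elsewhere was 6.03. The run of 8 was also the longest raised run with libraries scaled by the median of ratios or by quantiles, whereas without Δ*ku70* replicate 1 a run of 11 other identifiers with smaller rises (log2 fold changes 0.39 to 2.60) was longer. The first member, POX08686, had FPKM values of 1.08, 4.00 and 4.21 in Δ*ku70* and 930, 867 and 1038 in Δ*rsrA*. It was thus barely expressed in the parental strain and among the strongly expressed genes in the mutant, with means of 3.10 ± 1.75 and 945 ± 86.4 (SD, n = 3), a 305-fold difference (log2 fold change 7.96 ± 0.36 SE, limma, adjusted p = 0.000144). The last member, POX08693, had 4.40, 10.2 and 16.9 in Δ*ku70* and 873, 755 and 859 in Δ*rsrA*. The strains were again far apart, with a log2 fold change of 6.33 ± 0.42 (SE, limma, adjusted p = 0.000368).

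The members in between differed in level but not in direction. The fifth and the sixth had a higher level in the parental strain than the others, 50.7 to 58.7 and 24.5 to 33.9 FPKM, and rose to 5576 to 6339 and 2141 to 2590. The seventh, at 1.03 to 1.27 FPKM, rose to 262 to 392. The second rose from 2.04 to 7.88 FPKM to 608 to 739. Ratios of the means of the 8 genes ran from 78.5-fold to 1375-fold, and in no member did the strains overlap. Of all tested genes 15.0% were higher in Δ*rsrA* without overlap, and the members were chosen as called in these same libraries. As a group they held 0.0107%, 0.0102% and 0.0126% of the summed FPKM in Δ*ku70*, and 2.04%, 1.89% and 2.01% in Δ*rsrA*. All 8 were called with libraries scaled by the median of ratios (log2 fold changes 6.58 to 11.05) and without Δ*ku70* replicate 1. Under these settings 17.5% and 13.1% of all tested genes were raised.

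The level in Δ*rsrA* changed steeply at both ends of the run of 8. The identifiers directly before it, the first and the second, were at or near 0 FPKM in both strains and were not tested. The third before it had 3.79, 3.68 and 3.39 FPKM in Δ*ku70* and 9.29, 8.97 and 7.87 in Δ*rsrA* (log2 fold change 1.07, limma, adjusted p = 0.00311). The identifier directly after it had 2.29, 0.37 and 0.33 FPKM in Δ*ku70* and 2.71, 1.95 and 1.81 in Δ*rsrA*, overlapping ranges with a log2 fold change of 0.79 (limma, adjusted p = 0.158). Without Δ*ku70* replicate 1 it was called as raised (adjusted p = 0.00351), which extends the run by 1 weakly expressed gene. A step from at least 755 FPKM to under 3 FPKM thus lay between neighbouring identifiers on both sides in Δ*rsrA*.

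The run of 8 also set Δ*rsrA* apart from Δ*rsrB*. In the Δ*rsrB* libraries its genes together held 0.0115% to 0.0142% of the summed FPKM, close to the parental share. In the direct test of Δ*rsrA* against Δ*rsrB*, in which 5123 of 8491 genes (60.3%) differed, all 8 members were higher in Δ*rsrA*, by 5.79 to 10.63 on the log2 scale. The run had been picked as high in the same Δ*rsrA* libraries. POX08686 differed by 7.70 (limma, adjusted p = 9.17e-08) and POX08693 by 6.28 (adjusted p = 7.25e-07). Of the 4 tested flanking identifiers, 2 were higher in Δ*rsrB* instead. The one directly after the run had 50.8, 52.7 and 29.8 FPKM in Δ*rsrB* and under 3 FPKM in the other strains, and the third after it had 48.1, 58.3 and 32.5 in Δ*rsrB* and 0.75 to 1.06 in Δ*rsrA* (direct differences -3.81 and -4.57, limma, adjusted p = 1.73e-05 and 5.52e-06). For the identifier between them and for the third before the run, no difference between the mutants was called (-0.31 and -0.08, limma, adjusted p = 0.173 and 0.726).

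The longest lowered run was longer and much shallower. It held the 14 identifiers from POX08184 to POX08197, with log2 fold changes from -3.03 to -0.64 and a median of -1.22. In each of the 14 genes all Δ*rsrA* libraries were below all Δ*ku70* libraries. This was so for 41.5% of all tested genes, and the members were chosen as called in these same libraries. The first member, POX08184, had 15.6, 18.7 and 20.2 FPKM in Δ*ku70* and 7.47, 7.50 and 6.91 in Δ*rsrA* (log2 fold change -1.20 ± 0.14 SE, limma, adjusted p = 0.00225). The last, POX08197, had 46.9, 59.9 and 54.0 and then 33.5, 27.7 and 23.5 (log2 fold change -0.91 ± 0.18 SE, limma, adjusted p = 0.0102). Both fell and were still detected in the mutant.

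The largest falls of this run were those of its eleventh and twelfth members. The eleventh member had 27.1, 36.6 and 36.04 FPKM in Δ*ku70* and 5.68, 5.03 and 4.83 in Δ*rsrA* (log2 fold change -2.46, limma, adjusted p = 0.000368). The twelfth had 41.9, 264 and 333 FPKM in Δ*ku70* and 16.1, 18.8 and 19.7 in Δ*rsrA* (log2 fold change -3.03, limma, adjusted p = 0.0228). Here Δ*ku70* replicate 1 lay far below the other parental libraries, and without it the adjusted p was 3.22e-05. The 14 genes together held 0.0668%, 0.0900% and 0.1004% of the summed FPKM in Δ*ku70* and 0.0273%, 0.0252% and 0.0251% in Δ*rsrA*. The next identifiers after the run were strongly expressed and not lower in Δ*rsrA*, at 858 to 986 and then 1032 to 1378 FPKM for the first and 834 to 867 and then 928 to 1075 for the second, neither of which was called on the deposited values. With libraries scaled by the median of ratios both were called as raised (log2 fold changes 0.74 and 0.58, limma, adjusted p = 0.0197 and 0.0172), and the first also without Δ*ku70* replicate 1 (adjusted p = 0.0420). The identifier just before the run had 20.15, 162 and 229 FPKM in Δ*ku70* and 58.0, 50.95 and 50.35 in Δ*rsrA*, and it was called as lowered only without Δ*ku70* replicate 1 (adjusted p = 0.496 with it and 0.000599 without it).

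As an unbroken stretch the run of 14 depended on the scaling and on single libraries. With libraries scaled by the median of ratios 10 of its 14 genes were called, and without Δ*ku70* replicate 1, 13 were, 12 of them in a row. Of all tested genes 14.9% and 40.6% were lowered under these settings, and the members were chosen as called in these libraries. The highest adjusted p among the members was 0.0437. In Δ*rsrB* the 14 genes held 0.0751% to 0.0815% of the summed FPKM, within the range of Δ*ku70*. Single members differed from this sum. The fourth had 7.56 to 10.89 FPKM in Δ*rsrB* against 15.21 to 16.94 in Δ*ku70*, and the sixth 37.49 to 51.73 against 62 to 85.4. The third was higher in Δ*rsrB*, at 50.54 to 61.55 against 42.76 to 49.11. In the direct test 12 of the 14 differed, with lower values in Δ*rsrA*, among them POX08184 (-1.10, limma, adjusted p = 0.000325) and POX08197 (-0.63, adjusted p = 0.00904). Of all genes in that test 60.3% differed in either direction, and the run had been picked as low in the same Δ*rsrA* libraries.

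**Figure D5:**
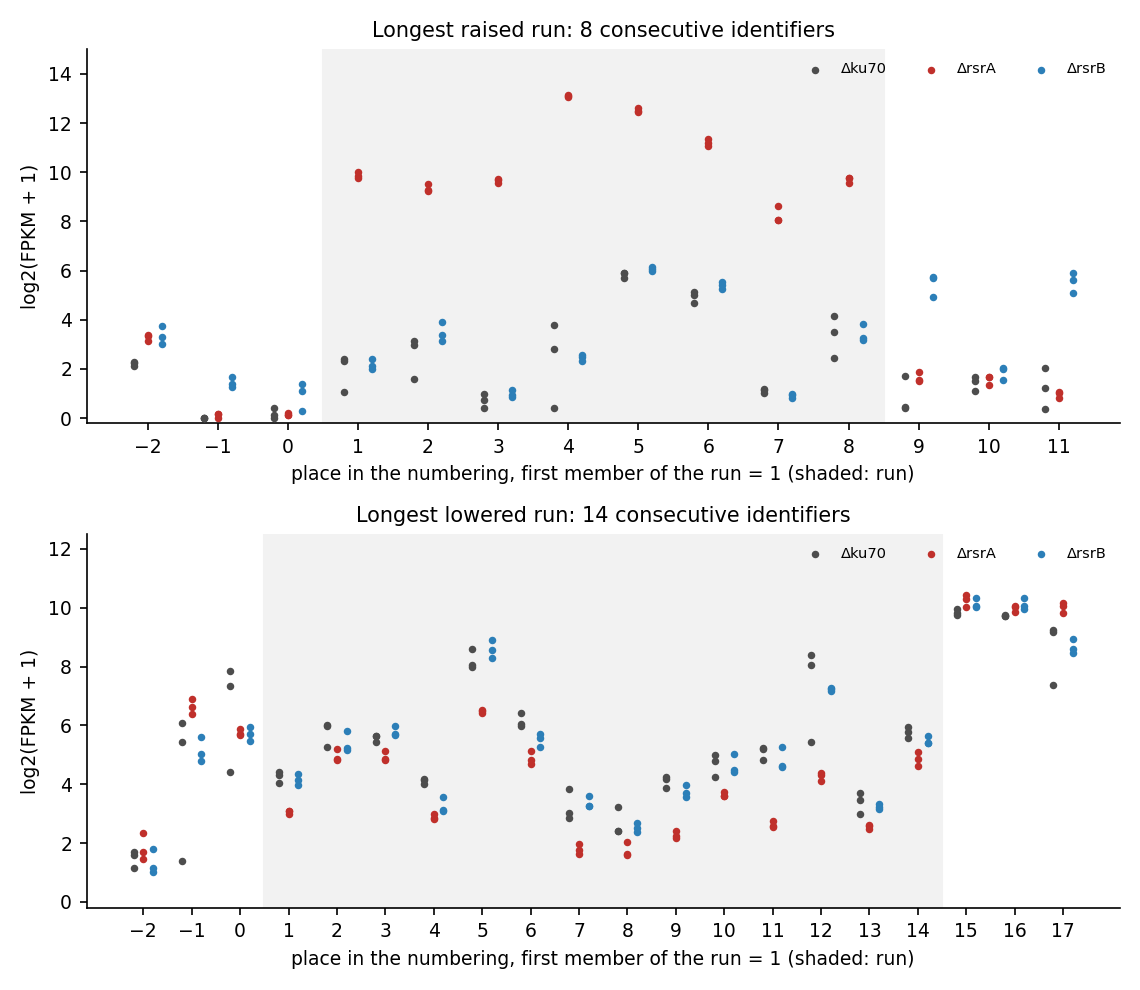
Expression, as log2(FPKM + 1), along the longest raised run (top, 8 identifiers) and the longest lowered run (bottom, 14 identifiers), with the 3 identifiers on each side, a point for each library and a colour for each strain. In the shaded run of 8 the ΔrsrA points lie at 262 FPKM and above and the Δku70 points at 58.7 FPKM and below, with a drop to under 3 FPKM directly outside it, and in the run of 14 the ΔrsrA points lie below the Δku70 points at each place.

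A shorter lowered run had the lowest median log2 fold change of all lowered runs, and it was chosen for this after the values had been seen. Its 6 consecutive identifiers had log2 fold changes from -6.18 to -1.72, with a median of -4.75. The log2(FPKM + 1) scale understates falls to near 0. A lowered run of 3, with a median of -4.66, fell from means of 17.5 to 117 FPKM to means of 0.127 to 0.513. The 6 genes held 0.455%, 0.635% and 0.672% of the summed FPKM in Δ*ku70*, and 0.0180%, 0.0169% and 0.0132% in Δ*rsrA*. The fall was steep in its first 4 members, the first of which went from 424, 512 and 553 FPKM to 22.3, 18.8 and 12.9 (log2 fold change -4.73, limma, adjusted p = 0.000157). It was smaller in the sixth, which went from 218, 114 and 140 FPKM to 29.8, 30.4 and 24.7 (log2 fold change -2.38, limma, adjusted p = 0.00157). The strains did not overlap in any of the 6, which were chosen as called in these libraries (41.5% of all tested genes were lower without overlap). In Δ*rsrB* the run held 0.365%, 0.289% and 0.258%, between the other strains. The mean FPKM of each of its first 4 members lay between them too. The fifth and sixth members had means of 152 and 163 FPKM in Δ*rsrB* against 123 and 157 in Δ*ku70*. In the direct test all 6 genes had lower values in Δ*rsrA*, with log2 differences from -5.21 to -2.04. Of all genes in that test 60.3% differed in either direction, and the run had been picked as low in the same Δ*rsrA* libraries. All 6 were also called with libraries scaled by the median of ratios and without Δ*ku70* replicate 1, settings under which 14.9% and 40.6% of all tested genes were lowered. The identifiers directly before this run, with 18.7, 65.3 and 53.0 FPKM in Δ*ku70* and 35.6, 35.0 and 26.9 in Δ*rsrA* for the nearest, overlapped between the strains and were not called. Without Δ*ku70* replicate 1 the nearest 2 were called as lowered (limma, adjusted p = 0.00817 and 0.0254).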

How the data were processed

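The authors sequenced poly(A) RNA on the BGISEQ-500 platform and deposited FPKM values, 1 list of 9721 genes per library, normalized to transcript length and to the mapped fragments of the library. The submitters' processing notes name bcl2fastq and HISAT2, and the paper names BWA, Bowtie2, RSEM and NOISeq. Strandedness, filters and settings are not given in the sources used here. FPKM values are not counts, so absolute depth is unknown, no counting error is given and no test for counts was used. Relative depth was read as the most frequent ratio of weakly expressed genes to those of Δ*ku70* replicate 2.

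For the 6 libraries, log2(FPKM + 1) values were fitted in limma 3.58.1 (R 4.3.3; lmFit, then eBayes with a trend). Genes entered when their mean FPKM reached 1, and p-values were adjusted by Benjamini-Hochberg over all of them. Genes with an adjusted p under 0.05 were called. Δ*rsrA* and Δ*rsrB* were compared likewise. NOISeq was not used here. A run is a stretch of identifiers that follow each other by number, all tested and called in 1 direction. Shares per library were tested by exact permutation. Alternatives tried were no filter, a filter at a mean of 5, a pseudocount of 0.1, other scalings, 1 fit over 9 libraries, a replicate block and leaving out each library. Steps were tested on simulated data. Named genes are *rsrA*, *rsrB* and the first and last identifier of the longest run in each direction, since identifiers are not paired with names, and other genes are given by their place. Genes, lists and tests were chosen with earlier results of these data known. Amylase, transporter and regulator genes, gene lengths and sequences were not analysed here.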

Additional observations from a re-analysis of the deposited data

Results flagged for a closer look

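The genes given here differed between the deletion of *rsrA* and that of *rsrB* in the direct test of Δ*rsrA* against Δ*rsrB* (limma, log2(FPKM + 1) scale, 3 libraries per strain). Both deletions are compared with the same Δ*ku70* libraries elsewhere, so the direct test, which does not use them, is the one given. It does use the Δ*rsrA* libraries in which the runs were picked. The identifier just before *rsrA* was higher in Δ*rsrA* by 3.74 (mean FPKM 111.5 against 7.47, adjusted p = 5.33e-06). POX08686 and POX08693, the ends of the run of 8, were higher by 7.70 (945 against 3.56 FPKM, adjusted p = 9.17e-08) and 6.28 (829 against 9.89 FPKM, adjusted p = 7.25e-07). POX08184 and POX08197, the ends of the run of 14, had differences of -1.10 (7.29 against 16.8 FPKM, adjusted p = 0.000325) and -0.63 (28.2 against 43.9 FPKM, adjusted p = 0.00904). In all 5 genes the libraries of both mutants did not overlap. Of all genes in this test 60.3% differed in either direction, and the share of all genes without overlap between the mutants is not given here.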

How the results depend on the processing

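With libraries scaled by the median of ratios, 1500 genes were raised (764 at least 2-fold) and 1276 lowered (660 at least 2-fold), in 97 and 52 runs. Quantile normalization gave 663 genes raised at least 2-fold, 1078 lowered (569 at least 2-fold), and 54 and 36 runs. A single fit over 9 libraries gave 54 raised runs. Same-numbered libraries of Δ*ku70* and Δ*rsrA* did not deviate together (r = -0.063, -0.064 and 0.088), so the numbers were not taken as pairs. With the replicate block 2226 genes were called, 1648 of them lowered, in 77 lowered runs.

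Leaving out 1 library at a time gave 1482 to 4594 called genes, 374 to 1121 raised, 1108 to 3473 lowered, 12 to 57 raised runs and 37 to 362 lowered runs. The lowest counts came without Δ*rsrA* replicate 2 and the highest without Δ*ku70* replicate 1. Leaving out any Δ*rsrA* replicate moved the called, raised and lowered counts and both counts of runs by more than 1.5 times (called genes 2071, 1482 and 1720). Lowered runs also moved without Δ*ku70* replicate 2, to 107. Their cause was not tested.

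The named genes kept their direction under all 14 alternatives. POX08686 stayed between 7.53 and 8.42 (adjusted p at most 0.00258), POX08693 between 5.87 and 6.73 (at most 0.00473), the identifier before *rsrA* between 3.80 and 4.32 (at most 0.00540) and POX08184 between -1.30 and -0.75 (at most 0.0185). POX08197 stayed between -1.04 and -0.59 and missed the threshold without Δ*rsrA* replicate 2 (-0.90, limma, adjusted p = 0.0515).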
